A study of Mus musculus with 16 samples.

Results

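The effect of diabetes on the kidney transcriptome of Elmo1H/H mice was taken over both treatments of the study, as the difference between the 8 libraries labelled diabetic and the 8 labelled non-diabetic, with vitamin B12 as a second factor. All 16 libraries of the series entered. Each came from the kidney of a male mouse on the C57BL/6J background, taken at 16 weeks of age. The non-diabetic mice were Elmo1H/H Ins2+/+ and the diabetic mice Elmo1H/H Ins2Akita/+. Of each state, 4 mice received no supplement (groups ND_C and D_C) and 4 received B12 in drinking water at 10 mg/kg per day from 8 weeks of age (groups ND_B12 and D_B12). The labels give 16 weeks of treatment and the study's methods give 8. Elmo1H is a hypermorphic allele of Elmo1, an adaptor that activates Rac1, and all mice carried 2 copies of it, the controls included. A comparison with mice of normal Elmo1 level was not made here. Ins2Akita is a point variant of an insulin gene that acts in the pancreatic beta cell from birth, so its presence cannot be checked from kidney counts.

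In diabetes the kidney filters more glucose than it can take back. The proximal tubule reabsorbs filtered glucose through the sodium-glucose transporters SGLT2 (Slc5a2) and SGLT1 (Slc5a1) and also makes glucose, while the collecting duct adjusts water reabsorption through aquaporins. Resident macrophages and dendritic cells of the kidney show peptides on MHC class II molecules, and plasma cells there secrete immunoglobulins. Grem1 (gremlin-1) binds and blocks bone morphogenetic proteins, which act against fibrosis in the kidney.

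Of 57186 genes, the 25408 with at least 100 counts summed over the 16 libraries were tested, on totals between 65271308 and 91771136 counts per library. Values given per library are normalized counts, which are counts divided by a size factor for depth, and are compared between libraries but not between genes. Each log2 fold change is diabetic over non-diabetic and is given ± its standard error (SE). The quasi-likelihood test of edgeR was fitted with 1 mean per labelled group, and its p-values were adjusted by Benjamini-Hochberg over all tested genes. The effect over both treatments is the mean of the effect in untreated kidneys (D_C over ND_C) and that in B12-treated kidneys (D_B12 over ND_B12). A gene changed alike in both treatments where the mean effect had an adjusted p-value below 0.05, the effects in both treatments had the same sign and an unadjusted p-value below 0.05 each, and their difference had an unadjusted p-value of 0.05 or more. A kidney sample holds many cell types, and fewer cells of a type cannot be told apart from less RNA per cell. Nothing states that the libraries came from separate cages or litters, so p-values measure the spread between these libraries.

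The expression of 2 libraries went against their diabetes label. Each library was placed on a scale where 0 is the mean of the non-diabetic and 1 the mean of the diabetic libraries, using the 100 genes that were most clearly higher and the 100 most clearly lower in the other libraries. The library labelled ND_B12 4 scored 0.825, while the other 7 non-diabetic libraries scored between -0.062 and 0.228. The library labelled D_C 1 scored 0.0633, while the other 7 diabetic libraries scored between 0.704 and 1.21. The 2 libraries were known to stand apart when the scale was built and took no part in choosing its genes or its means. Of the 2495 genes called without the pair, D_C 1 lay nearer the non-diabetic mean in 1682 (67.4%) and ND_B12 4 nearer the diabetic mean in 1697 (68%). The group means tabulated with the study also match groupings of the libraries that differ from the labelled ones. In those groupings the libraries labelled D_C, other than the odd one, and those labelled D_B12 change places, as do 1 library of ND_C and 1 of ND_B12, and the pair changes state. Which assignment is right cannot be told from these files. Every group below is the labelled group, and an effect called untreated or B12-treated holds for the labels only. Exchanging the whole D_C and D_B12 groups would leave the mean of the 2 effects as it is, but could alter which genes changed alike. The matching groupings also move single libraries, so the mean effect could differ under them, which was not tested. Values with all 16 libraries come first, and those without this pair are given beside them for the called genes and for the lists whose counts change. The pair was left out because of its expression, so p-values and counts of calls from the other 14 libraries are too favourable and serve as a description.

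**Figure D1:**
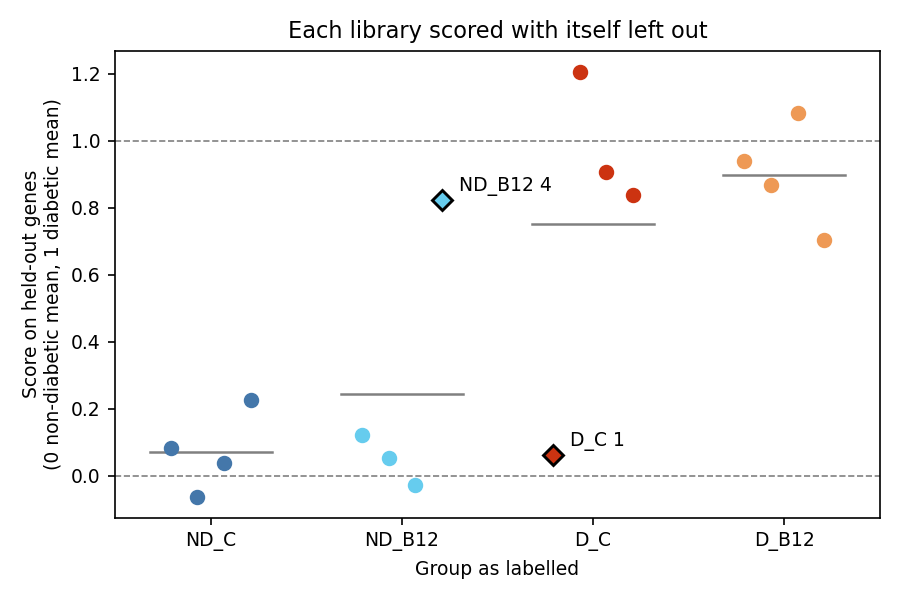
Score of each library on genes chosen without it, by labelled group; the vertical axis has no unit and runs from the non-diabetic mean (0) to the diabetic mean (1), grey bars are group means and black-edged diamonds are the 2 libraries that went against their label. ND_B12 4 lies at 0.825 among the diabetic libraries and D_C 1 at 0.0633 among the non-diabetic ones.

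Between diabetic and non-diabetic kidneys 767 genes changed over both treatments (3.02% of the tested genes), of which 219 were higher (0.862% of the tested genes) and 548 lower (2.16%) in diabetic kidneys. Of these, 485 genes (1.91%) changed alike in both treatments, 111 higher (0.437%) and 374 lower (1.47%), with a median log2 fold change of 0.58 for the higher and -0.37 for the lower genes. Immunoglobulin genes made up 39 of the 485, and predicted loci 34. Without the pair, 2495 genes (9.82%) were called, 1170 higher (4.60%) and 1325 lower (5.21%), and 1288 (5.07%) changed alike, 548 higher (2.16%) and 740 lower (2.91%). The 2 sets of alike genes shared 441 genes, which is 90.9% of the 485 and 34.2% of the 1288. All 755 genes called in both fits had the same sign. The 2 fits share 14 libraries, so neither the overlap nor the like signs are separate evidence. In 98 genes the values of the 8 diabetic and the 8 non-diabetic libraries did not overlap (0.386% of the tested genes), 14 with higher (0.0551%) and 84 with lower values (0.331%) in diabetes. Without the pair this held for 692 genes (2.72%), 303 higher (1.19%) and 389 lower (1.53%).

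The label of each library holds a date, and what it dates is not stated. All non-diabetic libraries have dates up to 28 August and all diabetic libraries but D_C 1 have later ones, so date and diabetes cannot be told apart. The only shared date holds ND_B12 2, ND_B12 3, ND_B12 4 and D_C 1, which are of different treatments and include the pair, so no within-date value is given. With the date as a covariate, edgeR called 0 genes over both treatments, with 2992 at an unadjusted p-value below 0.05, against 4920 (19.4%) without it. The counts also rested on single libraries: leaving out 1 library at a time gave between 225 genes (without ND_B12 2) and 1687 genes (without D_C 1) over both treatments, and between 176 (without ND_B12 3) and 865 (without D_C 1) changed alike. Leaving out ND_B12 4 gave 1365 and 816 genes, and DESeq2 called 1837 and 731 genes with all libraries.

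The untreated and B12-treated comparisons share no library, but both come from 1 fit with 1 estimate of the spread. In each of them every diabetic library has a later label date than every non-diabetic one. Date and diabetes therefore cannot be told apart in either comparison, nor in what recurs between them. The test called 423 genes in untreated kidneys (238 higher, 0.937%, and 185 lower, 0.728%, together 1.66%) and 209 in B12-treated kidneys (66 higher, 0.260%, and 143 lower, 0.563%, together 0.823%). Of the 185 genes lower in untreated kidneys, 72 (38.9%) were also lower in B12-treated kidneys at an unadjusted p-value below 0.05, where 9.20% of all tested genes were. Of the 238 genes higher in untreated kidneys, 19 (7.98%) were also higher with B12, close to the 7.79% of all genes. Without the pair, 938 genes were lower (3.69%) and 1149 higher (4.52%) in untreated kidneys, and 375 (40.0%) and 352 (30.6%) of these recurred with B12, beside 9.38% and 8.50% of all genes. In the other direction, of the genes called with B12 and all libraries, 44 of 143 lower genes (30.8%, beside 9.28% of all genes) and 11 of 66 higher genes (16.7%, beside 9.31%) recurred in untreated kidneys. Changes of opposite sign at the same threshold were seen in 17 of the 238 higher and 10 of the 185 lower genes of untreated kidneys, and in 6 of the 66 and 9 of the 143 genes called with B12. The share that recurred was thus above that of all genes for the decreases in both directions, and for the increases with all libraries only from B12-treated to untreated kidneys. Leaving out 1 library could bring the calls to 0 in untreated kidneys (without ND_C 2) and in B12-treated kidneys (without ND_B12 2, D_B12 1, D_B12 2 or D_B12 3).

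**Figure D2:**
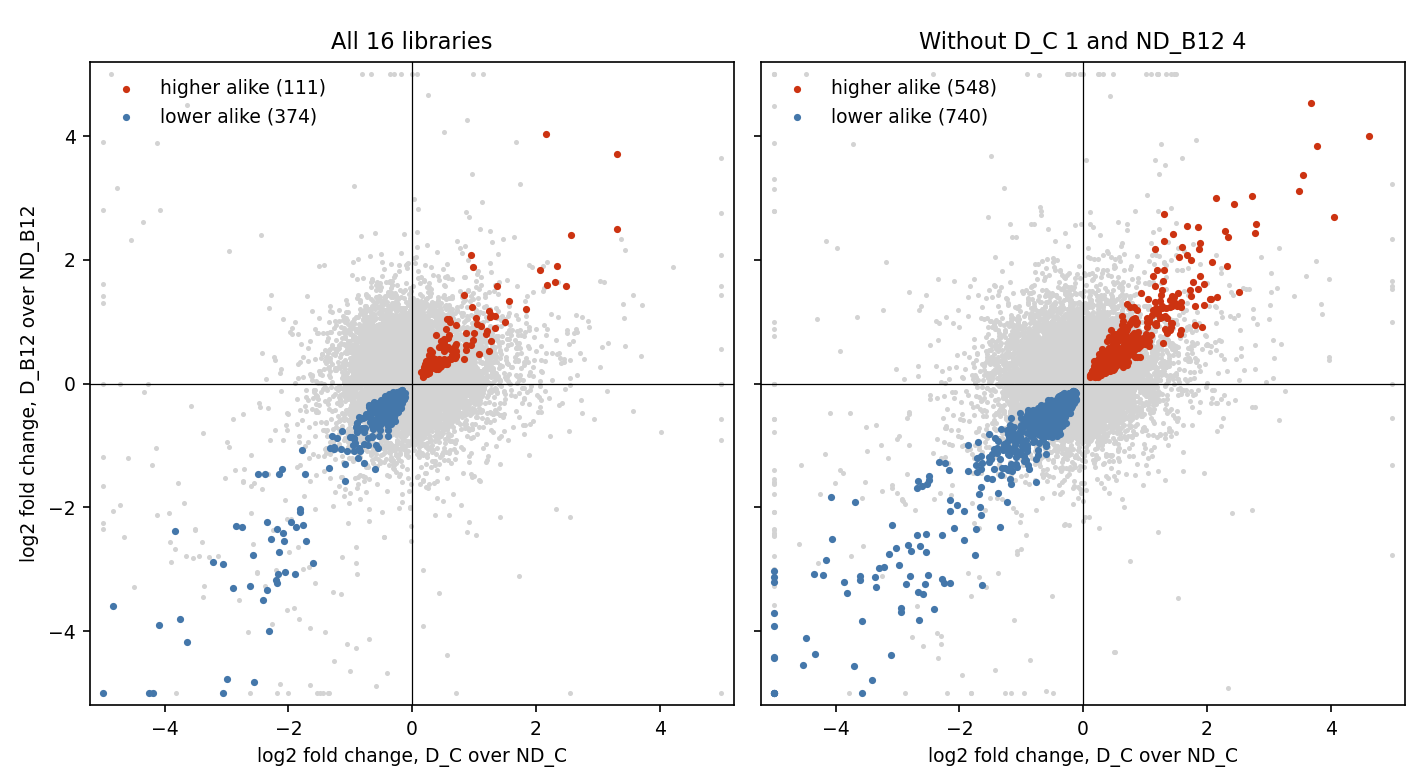
Log2 fold change of every tested gene in untreated (horizontal) and B12-treated kidneys (vertical), with all 16 libraries and without D_C 1 and ND_B12 4; red and blue points are genes that changed alike, grey points all others, and values beyond 5 are drawn at 5. The red and blue points lie in the quadrants of like sign because the definition puts them there, 111 and 374 of them on the left and 548 and 740 on the right.

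Of the alike genes with a mean normalized count of at least 100, Grem1 had the largest increase. Grem1 (chr2:113576509-113589000 on GRCm39, as are all gene positions here) encodes a secreted blocker of bone morphogenetic proteins, and its normalized counts ran from 5.46 to 61.9 (median 16.4) in the non-diabetic libraries and from 26.3 to 673 (median 241) in the diabetic ones. The lowest diabetic value was that of D_C 1 and the highest non-diabetic value that of ND_B12 4, and without this pair the groups did not overlap. The log2 fold change was 3.51 ± 0.58 (SE), with an adjusted p-value of 0.0121 in edgeR's test, 3.31 in untreated and 3.72 in B12-treated kidneys. Without the pair the log2 fold change of Grem1 was 4.11, and its adjusted p-value stayed below 0.05 in each of the 16 fits that left out 1 library.

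Slc6a12 (chr6:121320035-121342734) encodes the betaine transporter BGT1, which brings an organic osmolyte into medullary cells, and ran from 16.2 to 177 (median 59.9) in the non-diabetic libraries and from 89.9 to 579.8 (median 242) in the diabetic ones. It was the 1 member called of 6 organic osmolyte genes, where 0.862% of all genes were higher. Its log2 fold change was 2.04 ± 0.42 (adjusted p = 0.0215 by edgeR), and it changed alike. It stayed below 0.05 in 14 of the 16 fits that left out 1 library, with a highest adjusted p-value of 0.0516, and the value was 2.61 without the pair. Other genes among the 10 largest alike increases were Dscaml1 (a cell adhesion molecule), Ugt1a5 (a glucuronosyltransferase), Cracd (a regulator of actin capping), Lgr6 (a receptor for R-spondins), Spag5 (a protein of the mitotic spindle), Aldh1a7 (an aldehyde dehydrogenase) and Eda2r (the receptor of ectodysplasin A2), with log2 fold changes from 1.95 for Dscaml1 down to 1.13 for Eda2r. Without the pair Dscaml1, Ugt1a5, Cracd, Lgr6 and Eda2r gave 2.67, 2.00, 1.80, 1.38 and 1.59, and Eda2r was no longer alike.

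Aldh1a7 (chr19:20667107-20704932) ran from 744 to 2161 (median 1027) in the non-diabetic libraries and from 851 to 4046 (median 2576) in the diabetic ones, where the highest non-diabetic value was ND_B12 4 and the lowest diabetic value D_C 1. Its log2 fold change was 1.16 ± 0.25 (adjusted p = 0.0266), and the other 14 libraries did not overlap, with 1.50. Spag5 ran from 75.9 to 241 (median 156) in the non-diabetic libraries and from 209 to 515 (median 348) in the diabetic ones, with a log2 fold change of 1.19 ± 0.24 (adjusted p = 0.0190) and of 1.43 without the pair. Aldh1a7 shares most of its sequence with Aldh1a1 and Ugt1a5 shares its last exons with the other Ugt1a genes, so how their reads were divided is uncertain. Eda2r passed in only 2 of the 16 fits that left out 1 library, and Dscaml1 in 3.

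**Figure D3:**
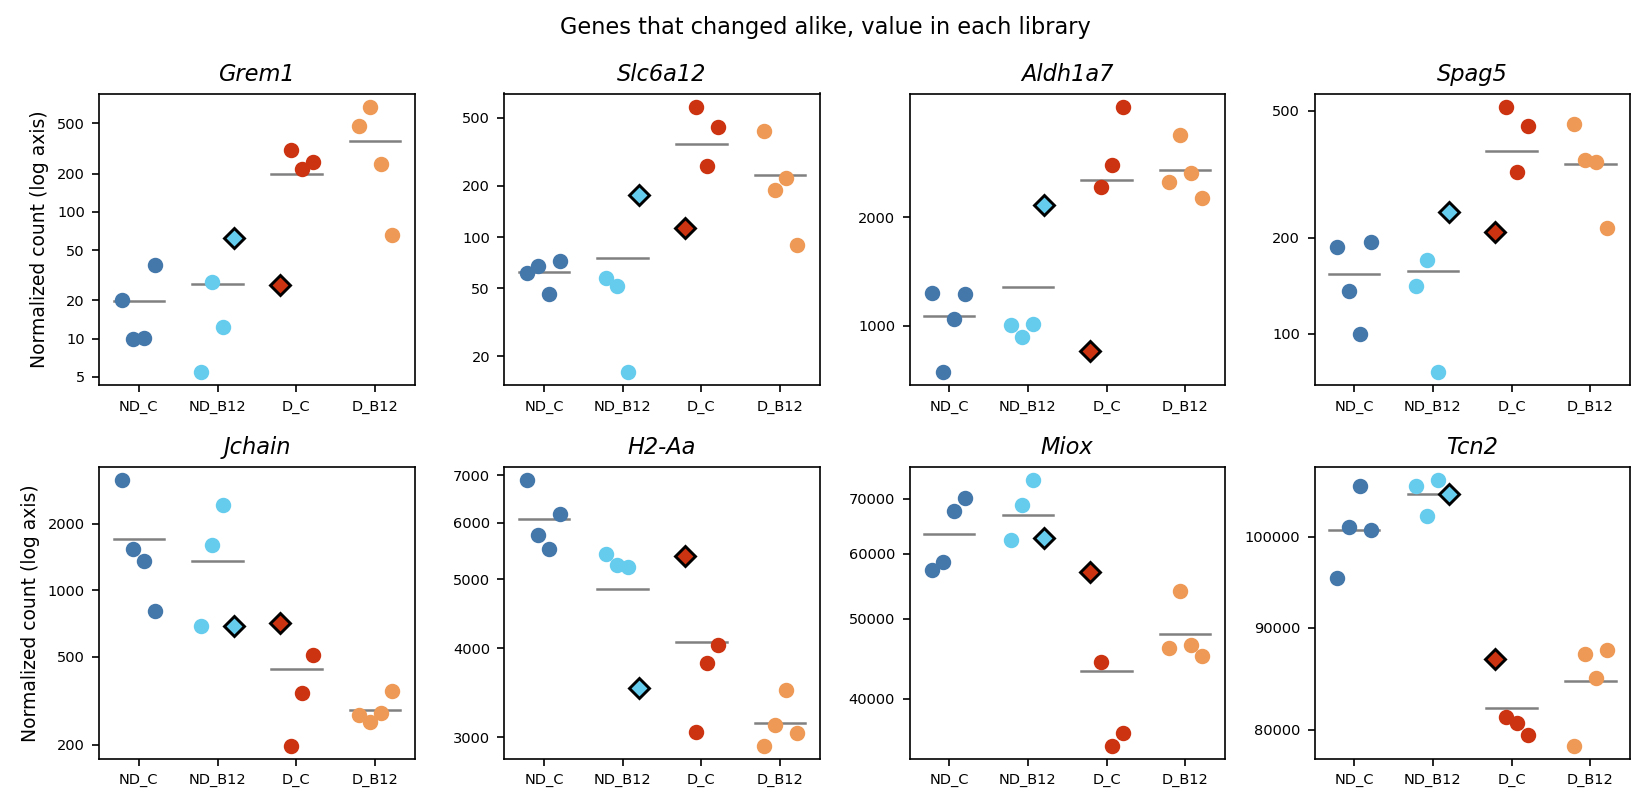
Normalized count in each library (log axis, own range in each panel) of 4 genes that were higher and 4 that were lower alike, by labelled group; grey bars are arithmetic group means and black-edged diamonds are D_C 1 and ND_B12 4. In Grem1, Aldh1a7 and H2-Aa the states overlap only through the 2 diamonds, and in Miox and Tcn2 the 8 diabetic values all lie below the 8 non-diabetic ones.

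Among the decreases, Jchain (chr5:88667668-88675750), whose product joins the units of secreted IgA and IgM, ran from 689 to 3138 (median 1444) in the non-diabetic libraries and from 198 to 708 (median 309) in the diabetic ones. The groups overlapped only through D_C 1, at 708, against ND_B12 4, at 689, and ND_B12 1, at 690.0. The log2 fold change was -2.09 ± 0.33 (adjusted p = 0.0116 by edgeR), with -1.96 in untreated and -2.23 in B12-treated kidneys, and -2.37 without the pair. Neurog2 (chr3:127426448-127429280), a transcription factor known from neurogenesis, ran from 55.1 to 413 (median 286) in the non-diabetic libraries and from 16.0 to 174 (median 50.6) in the diabetic ones, and changed by -2.02 ± 0.45 on the log2 scale (adjusted p = 0.0289) and by -2.63 without the pair. Its lowest non-diabetic value was that of ND_B12 4 and its highest diabetic value that of D_C 1.

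The other large alike decreases were in Anxa13 (an annexin), Ct55, Il34 (a ligand of the macrophage receptor CSF1R), Ttr (transthyretin, a carrier of thyroid hormone and retinol-binding protein), Srd5a2 (which converts testosterone to dihydrotestosterone), Fcamr (a receptor for IgA and IgM) and Pde6a (a phosphodiesterase subunit), with log2 fold changes between -1.33 and -1.01. Without the pair Anxa13, Ct55, Srd5a2, Fcamr and Pde6a gave -1.73, -1.39, -1.28, -1.40 and -1.28. Il34 ran from 429 to 1877 (median 1496) in the non-diabetic libraries and from 419 to 1302 (median 581) in the diabetic ones, with ND_B12 4 lowest among the non-diabetic and D_C 1 highest among the diabetic libraries, and its log2 fold change was -1.07 ± 0.26 (adjusted p = 0.0370) with all libraries and -1.41 without the pair. Ttr ran from 1642 to 7955 (median 5340.4) in the non-diabetic libraries and from 1919 to 3024 (median 2705) in the diabetic ones, with a log2 fold change of -1.04 ± 0.21 (adjusted p = 0.0194) and of -1.18 without the pair, and passed in each of the 16 fits that left out 1 library. The others passed in fewer: Il34 and Fcamr in 4, Srd5a2 in 3, Ct55 in 5, Neurog2 in 6, and Anxa13 and Pde6a in 7. Nnt, for the mitochondrial transhydrogenase, also met the definition (log2 fold change -1.59, and -1.66 without the pair), but the table lists it under 2 entries. Their sum stayed between 8181 and 10929 in every library, and the entry that fell was low in all 8 diabetic libraries and in ND_C 3, ND_B12 1 and ND_B12 4. The fall of 1 entry came with a rise of the other, so a change of Nnt itself is uncertain.

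Many genes of antibody production and most tested genes of class II antigen presentation were lower in diabetic kidneys over both treatments. Of 128 tested immunoglobulin genes, 44 were lower and 0 higher (2.16% of all tested genes were lower), 39 of them alike, with a median log2 fold change of -2.56 beside 0.0072 over all tested genes. Tested within 1 treatment, 11 were lower in untreated kidneys (0.728% of all genes were) and 6 in B12-treated kidneys (0.563%). Without the pair 79 were lower over both treatments (5.21% of all genes were). Igkc, the constant region of kappa light chains, ran from 1786 to 11164 (median 3653) in the non-diabetic libraries and from 522 to 2048 (median 664) in the diabetic ones, with a log2 fold change of -2.39 ± 0.37 (adjusted p = 0.0116 by edgeR). Ighm and Igha, the constant regions of IgM and IgA, changed by -2.57 ± 0.50 and -1.94 ± 0.32 (adjusted p = 0.0178 and 0.0117). Without the pair the values of Igkc, Ighm and Igha were -2.74, -2.68 and -2.21. The value of ND_C 1 for Ighm, 6025, was the highest of all libraries, and without ND_C 1 the adjusted p-value of Ighm was 0.0279 by edgeR. All 4 immunoglobulin and J chain genes passed in each of the 16 fits that left out 1 library. Immunoglobulin segments resemble each other, and the division of reads among them is uncertain.

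Of the 7 genes for MHC class II presentation, 6 were lower (2.16% of all genes were), and all 6 changed alike (1.47% of all genes were lower alike). Within 1 treatment, however, 0 of the 7 were called with all libraries in either. The median log2 fold change of the 7 was -0.60, -0.55 in untreated and -0.62 in B12-treated kidneys. All 7 were lower over both treatments without the pair (5.21% of all genes were). H2-Aa, the alpha chain of the class II molecule I-A, ran from 3518 to 6886 (median 5474) in the non-diabetic libraries and from 2921 to 5394 (median 3309.7) in the diabetic ones. The highest diabetic value was that of D_C 1 and the lowest non-diabetic value that of ND_B12 4, and without them every diabetic library lay below every non-diabetic one. The log2 fold change was -0.60 ± 0.11 (adjusted p = 0.0121 by edgeR), and -0.75 without the pair. Cd74, the invariant chain that guides class II molecules to the compartment where they load peptides, ran from 8641 to 16822 (median 13631) in the non-diabetic libraries and from 6804 to 13301 (median 8252) in the diabetic ones and changed by -0.62 ± 0.11 (adjusted p = 0.0149). H2-Ab1, the beta chain of I-A, and H2-Eb1, the beta chain of I-E, changed by -0.61 ± 0.12 and -0.59 ± 0.11 (adjusted p = 0.0168 and 0.0157). Without the pair Cd74, H2-Ab1 and H2-Eb1 changed by -0.77, -0.77 and -0.73. Cd74, H2-Aa, H2-Ab1 and H2-Eb1 all passed in each of the 16 fits that left out 1 library. H2-Aa (chr17:34493404-34506798, minus strand) and H2-Eb1 (chr17:34504236-34535648, plus strand) overlap in the GENCODE release used here for positions. That release is later than the one the study counted on. By the RefSeq starts of the promoters below, the 2 genes point away from each other and do not overlap. The strand of counting is not stated, so reads of any shared stretch cannot be assigned to either.

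The promoters of H2-Aa and H2-Eb1 are shown because these genes fell together and because class II promoters are known for a Y box, a site for the factor NF-Y. Both are 300 bases from RefSeq on GRCm38.p6, from 250 bases before to 50 after the gene's RefSeq start. They are written 5′ to 3′ on the gene's strand, with the Y box letters CTGATTGG in capitals. That for H2-Aa is chr17:34287774-34288073 on the minus strand and that for H2-Eb1 chr17:34305617-34305916 on the plus strand.
H2-Aa: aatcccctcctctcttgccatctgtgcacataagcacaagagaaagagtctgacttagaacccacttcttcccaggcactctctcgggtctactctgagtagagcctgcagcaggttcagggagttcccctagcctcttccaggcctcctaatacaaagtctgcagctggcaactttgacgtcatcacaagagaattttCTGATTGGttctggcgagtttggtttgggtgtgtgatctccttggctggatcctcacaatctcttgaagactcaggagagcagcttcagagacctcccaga
H2-Eb1: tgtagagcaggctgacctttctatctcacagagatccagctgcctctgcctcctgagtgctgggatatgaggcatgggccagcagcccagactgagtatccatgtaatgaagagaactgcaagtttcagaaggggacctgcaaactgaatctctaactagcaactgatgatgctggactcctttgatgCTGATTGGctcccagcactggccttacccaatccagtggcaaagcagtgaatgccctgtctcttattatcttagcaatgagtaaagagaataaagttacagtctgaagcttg
The match begins 51 bases before the start of H2-Aa and 62 bases before that of H2-Eb1. Of the 7 genes, 4 matched the RefSeq table by symbol, and 2 of these held the letters on either strand, beside 4.1% of all 32851 promoters (1346). The letters contain ATTGG, the reverse complement of CCAAT, which 37.4% of all promoters held. A match is a description of the sequence and was not tested for binding.

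Markers of immune cells were lower in part. Of 9 tested genes for B cells and plasma cells 3 were lower, of 9 T cell genes 1 (Cd3g, a chain of the T cell receptor complex, with -1.18 ± 0.30), of 8 macrophage genes 1, and of 14 complement genes 4, with 0 higher in any of these lists (2.16% of all genes were lower). Without the pair 4, 2, 4 and 5 genes of these lists were lower (5.21% of all genes), and 1 complement gene was higher. The 3 genes called for B cells and plasma cells with all libraries were Igkc, Ighm and Jchain, given above, and the 1 macrophage gene was C1qa. The median log2 fold changes of the 4 lists were -0.65, -0.45, -0.26 and -0.25. C1qa, a chain of the complex that starts the classical complement pathway and a product of macrophages, ran from 548 to 1034 (median 850.0) in the non-diabetic libraries and from 444 to 875 (median 587) in the diabetic ones and changed by -0.47 ± 0.12 (adjusted p = 0.0382 by edgeR). Cfb (complement factor B) changed by -0.50 ± 0.11 and C4b by -0.51 ± 0.13 (adjusted p = 0.0297 and 0.0448), and all 3 complement genes changed alike. C3, the central component, had a log2 fold change of the opposite sign, from 2319 to 3263 in median counts, but at 1.22 ± 0.51 it did not pass with all libraries (adjusted p = 0.197). Cybb and Rac2, which belong to the NADPH oxidase of phagocytes, changed by -0.54 ± 0.12 and -0.60 ± 0.15 (adjusted p = 0.0263 and 0.0452). Without the pair C1qa, Cfb, C4b, Cd3g, Cybb and Rac2 changed by -0.60, -0.64, -0.63, -1.45, -0.67 and -0.75, and C3 by 1.71. C1qa and Rac2 passed in 3, C4b and Cd3g in 4, Cfb in 6 and Cybb in 9 of the 16 fits that left out 1 library.

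Of 37 interferon-stimulated genes 3 were lower (2.16% of all genes were) and 0 higher, and without the pair 6 (5.21% of all genes) and 0, among them Gbp3 and Ifi47, GTPases induced by interferon, at -0.50 ± 0.088 and -0.63 ± 0.14, and at -0.57 and -0.76 without the pair. They stayed below 0.05 in 16 and 9 of the fits that left out 1 library, in that order. The median of these 37 was -0.065.

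Summed over each list, the normalized counts of immunoglobulin genes ran from 8455 to 48153 (median 16158) in the non-diabetic libraries and from 2915 to 9330.1 (median 3781) in the diabetic ones, a log2 difference of -2.02 (adjusted p = 0.00218 by a two-sided exact permutation test over 8 and 8 libraries, which cannot go below an unadjusted 0.000155, with 14 sums tested). The sum of the class II genes ran from 21137 to 39239 (median 31522) in the non-diabetic libraries and from 16476 to 31743 (median 19507) in the diabetic ones, a difference of -0.61 (adjusted p = 0.00870, exact permutation test). B and plasma cell markers differed by -2.11 (adjusted p = 0.00218, exact permutation test). Their list shares Igkc and Ighm with the immunoglobulin genes, so this sum is not a result separate from the immunoglobulin sum. Macrophage markers differed by -0.25 and T cell markers by -0.35, both with an adjusted p of 0.0802 in the exact permutation test. Macrophage sums ran from 4759 to 8070.4 (median 6882) in the non-diabetic libraries and from 4595 to 6626 (median 5675) in the diabetic ones, and T cell sums from 377 to 814 (median 489) in the non-diabetic libraries and from 343 to 538 (median 411) in the diabetic ones. Without the pair these 5 sums differed by -2.29 for immunoglobulins, -0.78 for class II, -2.36 for B and plasma cells, -0.36 for macrophages and -0.47 for T cells. What part the number of immune cells had in the class II decrease was not tested.

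Some genes of detoxification were higher. Of 29 genes of the Nrf2 response and of conjugation, 5 were higher (0.862% of all tested genes were) and 0 lower, with a median log2 fold change of 0.25, 0.27 in untreated and 0.23 in B12-treated kidneys. Without the pair 20 were higher (4.60% of all genes), 10 of them alike. Ephx1, the microsomal epoxide hydrolase, ran from 1725 to 4956 (median 2485) in the non-diabetic libraries and from 3282 to 6783 (median 4602) in the diabetic ones and changed by 0.81 ± 0.18 (adjusted p = 0.0266 by edgeR). Its highest non-diabetic value was that of ND_B12 4. Ugt1a2 ran from 78.4 to 1118 (median 134) in the non-diabetic libraries and from 231 to 1675 (median 849.7) in the diabetic ones, where ND_B12 4 alone gave the non-diabetic maximum, and changed by 1.93 ± 0.44 (adjusted p = 0.0298). Nqo1, a quinone reductase and standard Nrf2 target, ran from 2912 to 4609 (median 3518) in the non-diabetic libraries and from 3215 to 5508 (median 5190.3) in the diabetic ones and changed by 0.43 ± 0.10 (adjusted p = 0.0379), and by 0.55 without the pair. The effects in untreated and B12-treated kidneys were 1.22 and 0.41 for Ephx1, 2.85 and 1.02 for Ugt1a2, and 0.56 and 0.29 for Nqo1. Without the pair Ephx1 and Ugt1a2 gave 1.05 and 2.68. Of the 5 called genes, only Ugt1a5 met the definition of an alike change. Ephx1 passed in 10, Ugt1a2 in 8 and Nqo1 in 5 of the 16 fits that left out 1 library. Ephx1 overlaps another gene on the other strand. Ugt1a6b gave 0.56 (adjusted p = 0.0509) and 0.74 without the pair.

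Genes for the uptake and breakdown of sugars passed mainly without the pair. With all libraries 0.862% of all genes were higher and 2.16% lower, and without the pair 4.60% and 5.21%. Of 8 glucose transporter genes 0 were called with all libraries and 4 were higher without the pair, and of 22 tested genes of glycolysis and of fructose and polyol metabolism 1 was higher and 0 lower with all libraries, and 12 higher and 1 lower without the pair. Slc5a10, a sodium-coupled transporter of mannose and fructose, ran from 11132 to 27489 (median 12792) in the non-diabetic libraries and from 9256 to 40995 (median 23788) in the diabetic ones, with ND_B12 4 as the highest non-diabetic and D_C 1 as the lowest diabetic value. Its log2 fold change was 0.83 ± 0.24 (adjusted p = 0.0751 by edgeR) and 1.17 without the pair. Slc2a5 (GLUT5, a fructose transporter) gave 0.55 with and 0.77 without the pair, and Slc5a1 (SGLT1) 0.32 and 0.43. Slc2a2 (GLUT2, the basolateral exit of glucose) gave 0.10 and 0.26. Slc5a2 (SGLT2) ran from 23426 to 29884 (median 25842) in the non-diabetic libraries and from 18327 to 27772 (median 24513) in the diabetic ones, and its log2 fold change of -0.12 ± 0.073 did not pass (adjusted p = 0.381, and 0.619 without the pair).

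Aldoc, an aldolase, was the sugar-metabolism gene called with all libraries, at 0.80 ± 0.20 (adjusted p = 0.0431 by edgeR) and 1.02 without the pair. It did not change alike with all libraries. Eno1 (enolase), Pklr (pyruvate kinase) and Tkfc (triokinase, which acts on fructose breakdown products) gave 0.45, 0.53 and 0.32 with all libraries and 0.66, 0.76 and 0.45 without the pair. Without the pair the groups did not overlap for any of the 3, and 1.19% of all genes were higher without overlap. Miox (chr15:89218601-89221218), which breaks down myo-inositol in the proximal tubule, was lower without overlap, from 35080.2 to 56954 in diabetic against 57304 to 73689 in non-diabetic libraries (0.331% of all genes were lower without overlap). Its log2 fold change was -0.52 ± 0.091 (adjusted p = 0.0121), -0.56 in untreated and -0.48 in B12-treated kidneys, and -0.62 without the pair. Of 8 genes of gluconeogenesis 0 were called with all libraries and 2 were higher without the pair (4.60% of all genes were). Pck1, an early enzyme of this pathway, and G6pc1, its last, gave 0.25 ± 0.17 and -0.34 ± 0.099 (adjusted p = 0.465 and 0.0748 by edgeR).

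The lipid genes that passed with all libraries were all lower. Of 13 genes of fatty acid synthesis 3 were lower and 0 higher, of 20 genes of cholesterol synthesis and uptake 2 were lower and 0 higher, and of 31 tested genes of fatty acid oxidation and ketogenesis 3 were lower and 0 higher, where 2.16% of all genes were lower. Without the pair, the oxidation genes were 8 higher and 3 lower, the synthesis genes 1 higher and 4 lower, and the cholesterol genes 1 higher and 4 lower, where 4.60% of all genes were higher and 5.21% lower. Fads2, a fatty acid desaturase, ran from 10087 to 12919 (median 11871) in the non-diabetic libraries and from 6411 to 10495 (median 9445) in the diabetic ones and changed alike, by -0.40 ± 0.091 (adjusted p = 0.0296 by edgeR). Acat1, which acts in ketone body breakdown and in the last step of beta oxidation, ran from 42279 to 55404 (median 49571) in the non-diabetic libraries and from 37023 to 42948 (median 40357) in the diabetic ones and changed alike, by -0.33 ± 0.053 (adjusted p = 0.0116). Without the pair Fads2 and Acat1 changed by -0.48 and -0.36.

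Scd1, the stearoyl-CoA desaturase, which puts the double bond into stearic acid, depended on the pair. It ran from 2134 to 27604 (median 11068) in the non-diabetic libraries and from 2641 to 37447 (median 3683) in the diabetic ones, and D_C 1 held 37447 and ND_B12 4 2134. The log2 fold change of Scd1 was -1.01 ± 0.53 with all libraries (adjusted p = 0.315) and -2.04 without the pair, where the groups did not overlap. Cyp4a14, a fatty acid omega-hydroxylase, gave 1.50 ± 0.72 with all libraries (adjusted p = 0.268 by edgeR) and 2.58 without the pair. Cyp4a10, a close paralog with which it can share reads, gave 0.77 and 1.17. Acat1 passed in 16 and Fads2 in 8 of the 16 fits that left out 1 library.

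Some matrix genes were higher. Of 15 basement membrane genes 3 were higher (0.862% of all genes were) and 0 lower, and 8 were higher without the pair (4.60% of all genes). With all libraries 0 of the 15 changed alike. Within 1 treatment, 4 were higher in untreated kidneys (0.937% of all genes were) and 0 in B12-treated kidneys (0.260%). Lamc1, a laminin chain, gave 0.21 ± 0.054 (adjusted p = 0.0447 by edgeR), with 0.47 in untreated and -0.042 in B12-treated kidneys, so its change was not alike, and 0.27 over both treatments without the pair. Col4a1 and Col4a2, the collagen IV chains of every basement membrane, gave 0.26 and 0.28 (adjusted p = 0.145 and 0.110), and 0.35 and 0.38 without the pair. Of 18 interstitial matrix genes 4 were higher without the pair and 1 with all libraries, Tnc, the matrix protein tenascin C, which ran from 341 to 746 (median 517) in the non-diabetic libraries and from 457 to 1673 (median 1243) in the diabetic ones and changed by 1.03 ± 0.25 (adjusted p = 0.0370) and by 1.17 without the pair. Tnc did not change alike with all libraries. Fn1 (fibronectin) and Fbn1 (fibrillin) gave 0.46 and 0.40 with all libraries and 0.60 and 0.56 without the pair.

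Of 21 genes of tubular injury and repair 1 was higher and 1 lower, both alike, where 0.862% of all genes were higher and 2.16% lower, and 3 were higher and 1 lower without the pair (4.60% and 5.21%). Gdf15, a cytokine released by stressed cells, ran from 241 to 443 (median 319) in the non-diabetic libraries and from 374 to 1183 (median 588) in the diabetic ones and changed by 1.01 ± 0.21 (adjusted p = 0.0234) and by 1.16 without the pair. Vcam1, an adhesion molecule, changed by -0.35 ± 0.083 (adjusted p = 0.0358) and by -0.41 without the pair. Spp1 (osteopontin, secreted by injured tubule cells) gave 0.35 ± 0.13 (adjusted p = 0.139) and 0.51 without the pair. Cdkn1a, the cell cycle inhibitor p21, gave 1.04 ± 0.31 (adjusted p = 0.0788), with D_C 1 at 281 as the lowest diabetic and ND_B12 4 at 987 as the highest non-diabetic value, and 1.42 without the pair. The injury markers Havcr1 (KIM-1) and Lcn2 (NGAL) did not pass, at -0.71 ± 0.32 and 0.93 ± 0.31 (adjusted p = 0.236 and 0.111). Gdf15 passed in 12, Tnc in 5, and Lamc1 and Vcam1 in 4 of the 16 fits that left out 1 library. Of 32 cell cycle genes 0 were called with all libraries and 7 were higher without the pair, where 4.60% of all genes were higher.

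Along the nephron, some proximal tubule genes fell. Of 16 markers 3 were lower (2.16% of all genes were) and 0 higher, and 8 were lower without the pair (5.21% of all genes). The list had a median of -0.23, and their summed counts differed by -0.20 on the log2 scale (adjusted p = 0.00218, exact permutation test) and by -0.19 without the pair. Slc34a1, the main phosphate transporter of the brush border, ran from 336801 to 391540 in the diabetic and from 398950 to 456428 in the non-diabetic libraries. The groups did not overlap (0.331% of all genes were lower without overlap). Its log2 fold change was -0.25 ± 0.048 (adjusted p = 0.0178 by edgeR), and -0.24 without the pair. Of 12 androgen-responsive kidney genes 3 were lower and 0 higher, and 7 and 0 without the pair, among them Kap, the kidney androgen-regulated protein, at -0.49 ± 0.13, and Odc1, the rate-limiting enzyme of polyamine synthesis, at -0.65 ± 0.16 (adjusted p = 0.0480 and 0.0371). Neither was alike with all libraries, and without the pair they gave -0.61 and -0.77. Cyp4b1 gave -0.83 (adjusted p = 0.0732) and -1.08 without the pair.

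Ace, which makes angiotensin II, ran from 13947 to 34418 (median 25147) in the non-diabetic libraries and from 14254 to 21457 (median 17219) in the diabetic ones and changed alike by -0.57 ± 0.13 (adjusted p = 0.0290), and by -0.70 without the pair. Agt, which encodes the precursor of the angiotensins, gave 0.62 ± 0.20 (adjusted p = 0.101) and 0.88 without the pair, and Ren1, a renin gene, gave -0.14 ± 0.26 (adjusted p = 0.823).

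In the collecting duct, Aqp2, the vasopressin-regulated water channel, ran from 4054 to 13217 (median 6421) in the non-diabetic libraries and from 6943 to 27158 (median 14237) in the diabetic ones and changed by 1.14 ± 0.27 (adjusted p = 0.0348). Its effect was 1.69 in untreated and 0.59 in B12-treated kidneys, and 1.42 over both treatments without the pair. Umod, the main urinary protein of the thick limb, gave -0.35 ± 0.092 (adjusted p = 0.0533) and -0.43 without the pair. Slc34a1 passed in each of the 16 fits that left out 1 library, Ace in 7, Odc1 in 5, Aqp2 in 4 and Kap in 2.

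Tcn2 (chr11:3866490-3882378) encodes transcobalamin, the plasma carrier that delivers B12 to cells. It was the 1 member called of 15 genes of B12 uptake and use, where 2.16% of all genes were lower. Without the pair 1 was higher and 1 lower (4.60% and 5.21% of all genes). Tcn2 ran from 78548 to 87702 in the diabetic and from 95299.7 to 106737 in the non-diabetic libraries, with no overlap even with the pair included. Of all genes, 0.331% were lower without overlap in the 16 libraries. Its log2 fold change was -0.31 ± 0.04 (adjusted p = 0.00484 by edgeR), -0.30 in untreated and -0.32 in B12-treated kidneys, and -0.32 without the pair. It stayed below 0.05 in each of the 16 fits that left out 1 library, at most at 0.0188.

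Several genes and groups did not pass the test, some with effects of opposite sign in the 2 treatments. Elmo1 ran from 295 to 497 (median 347) in the non-diabetic libraries and from 286 to 417 (median 346) in the diabetic ones, with a log2 fold change of -0.036 ± 0.099 (adjusted p = 0.888 by edgeR). None of 84 tested subunits of oxidative phosphorylation and of 13 mitochondrially encoded genes was called with all libraries, and their medians were -0.017 and -0.0046. The 13 mitochondrially encoded genes were all below 0 in untreated kidneys (median -0.15) and all above 0 in B12-treated kidneys (median 0.14), with 0 called in either. Nphs1, the slit diaphragm protein nephrin, gave 0.12 ± 0.058 (adjusted p = 0.292). Txnip, which responds to glucose, gave 0.05 ± 0.14 over both treatments (adjusted p = 0.889), made of 0.63 in untreated and -0.53 in B12-treated kidneys, and 0.25 without the pair. Bmal1 and Dbp of the circadian clock likewise gave -1.33 and 0.60 in untreated but 0.84 and -1.12 in B12-treated kidneys, and of 5 clock activators, 10 repressors and 7 output genes 0 were called over both treatments with all libraries. These splits by treatment follow the labels, and with the D_C and D_B12 labels exchanged they would differ. By the labels, the effect of diabetes with B12 was above the untreated effect for Bmal1 and below it for Txnip and Dbp. For diabetic kidneys the study reports the other direction, with Bmal1 lower and Txnip and Dbp higher under B12. That comparison, of B12-treated with untreated diabetic kidneys, was not made here.

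Other genes had larger values without the pair. Cyp24a1, which breaks down active vitamin D, gave -0.88 ± 0.47 with all libraries (adjusted p = 0.324) and -1.50 without the pair, where D_C 1 held 16687 beside a diabetic median of 2977. Ces1g, a carboxylesterase, was called with all libraries at -1.37 ± 0.35 (adjusted p = 0.0488), passed in 2 of the 16 fits that left out 1 library and gave -1.82 without the pair. Of 22 genes of the unfolded protein and integrated stress response 2 were lower and 0 higher, the chaperone gene Calr at -0.22 ± 0.054 and the disulfide isomerase gene Pdia6 at -0.24 ± 0.061 (adjusted p = 0.0375 and 0.0493), each passing in 3 of the 16 fits that left out 1 library, and at -0.28 and -0.31 without the pair. Without the pair 5 of the 22 were lower (5.21% of all genes), and with all libraries 2.16% of all genes were lower.

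The difference between the effects in the 2 treatments was called in 0 genes with all libraries by edgeR (smallest adjusted p = 0.0521, 4093 genes at an unadjusted p-value below 0.05), in 943 by DESeq2, and in 83 genes (0.327%) without the pair. Without the pair, Aqp3, the basolateral water channel of the collecting duct, had an effect of 0.72 in untreated and 0.11 in B12-treated kidneys.

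Markers of further cell types were summed in the same way. Adipocyte markers summed to a log2 difference of -0.66 and endothelial markers to 0.16 (adjusted p = 0.0802 and 0.0816, exact permutation test), and podocyte markers to 0.081 (adjusted p = 0.158, exact permutation test). Of 9 adipocyte genes 0 were called, and of 10 endothelial genes 2 were higher (0.862% of all genes were). With all libraries 0 of the 10 endothelial genes changed alike. Without the pair 5 endothelial genes were higher (4.60% of all genes) and 1 adipocyte gene was lower (5.21%). The median over the adipocyte genes had the other sign than their sum, at 0.34, with -0.30 in untreated and 0.99 in B12-treated kidneys. Of 10 skeletal muscle and 11 adrenal markers only 3 each had enough counts to be tested, of which 0 muscle and 1 adrenal gene (lower) were called, and the muscle sum differed by 0.20 (adjusted p = 0.261, exact permutation test). The tested muscle genes include Pvalb, which was also listed as a marker of the distal tubule, so their sum is not one of muscle alone. Fat lies at the renal hilum, and the part of attached tissue in the lipid results was not tested.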

How the data were processed

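Total RNA of 16 kidneys was sequenced, 4 per labelled group. The authors deposited estimated counts per gene, 1 column per library, and per the labels, the submitters' processing notes and the study's methods the reads were demultiplexed with bcl2fastq 2.20.0, aligned with STAR to GRCm39 and quantified with StringTie. The strand setting is not given in the sources used here. The deposited counts were whole numbers, so rounding for the count model changed none. The transcript table was not used, and 0 columns belonged to no library. Libraries held 65271308 to 91771136 counts, with a biological coefficient of variation of 0.2008 (0.1868 without the 2 doubted libraries).

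Genes with a summed count of at least 100 were fitted in edgeR 4.0.16 (R 4.3.3, limma 3.58.1) with TMM normalization, 1 mean per group and the quasi-likelihood test (12 residual degrees of freedom). Contrasts were adjusted by Benjamini-Hochberg at 0.05. Sums over marker lists were compared by two-sided exact permutation tests (scipy 1.17.1, Python 3.11.15). The fit was first tested on simulated data with known changes. Alternatives were DESeq2 1.42.0, another normalization, filter, model or call rule, a replicate block, the label date, and each library left out. The comparison, the gene lists and the 2 doubted libraries were chosen with earlier results of these data known.

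Genes were named by rule: the 10 largest increases and decreases among alike genes with a mean normalized count of at least 100, without predicted loci and immunoglobulins, in either set of libraries; up to 4 members of a list with the smallest p-value; and a fixed set of kidney genes. Of the genes so picked, 88 are named, and some are not reported here. Ins2 was not among the tested genes. Gene positions come from the GENCODE annotation of GRCm39, in a later release than the one the study counted on, and promoters from RefSeq on GRCm38.p6.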

Additional observations from a re-analysis of the deposited data

Results flagged for a closer look

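In 196 tests over the 8 diabetic or 8 non-diabetic values of a named gene, list sum or score, 45 extreme values (23%) stood apart, with a gap to the next library above 0.526 of the range of the 8. For normally distributed values, chance flags about 1 in 20 groups. The rule was applied to counts without a log transform, and counts with a long upper tail are flagged more often. The 23% therefore cannot be set directly against 1 in 20. Genes share their libraries and many were named with the pair known, so the flags are not independent. ND_B12 4 held 20 of them and D_C 1 held 15. Each gene or sum is given with its gap as a share of the range. The highest non-diabetic value was that of ND_B12 4 for Agt (0.856), Aldh1a7 (0.655), Aldoc (0.537), Aqp3 (0.603), Cracd (0.639), Dscaml1 (0.598), Eno1 (0.65), Ephx1 (0.604), Pklr (0.74), Slc2a2 (0.788), Slc2a5 (0.572), Slc5a10 (0.823), Slc6a12 (0.653), Txnip (0.732), Ugt1a2 (0.817), the skeletal muscle sum (0.588) and the label score (0.674). The highest diabetic value was that of D_C 1 for Cd74 (0.577), Ces1g (0.648), Cyp24a1 (0.646), Fcamr (0.713), H2-Aa (0.545), H2-Ab1 (0.606), H2-Eb1 (0.593), Igkc (0.624), Scd1 (0.944), the immunoglobulin sum (0.591), the class II sum (0.625) and the B and plasma cell sum (0.621). The lowest non-diabetic value was that of ND_B12 4 for Calr (0.588), Il34 (0.541) and Kap (0.69). The highest non-diabetic value was that of ND_C 1 for Cd3g (0.598), Elmo1 (0.598) and Ighm (0.667). The lowest diabetic value was that of D_C 1 for Eda2r (0.729), Slc2a2 (0.551) and the label score (0.561). The highest diabetic value was that of D_C 2 for Havcr1 (0.634) and Pck1 (0.561). The highest non-diabetic value was that of ND_B12 2 for Ces1g (0.651). The highest non-diabetic value was that of ND_C 3 for Havcr1 (0.552). The highest diabetic value was that of D_C 4 for Lgr6 (0.535). The highest non-diabetic value was that of ND_B12 1 for Ren1 (0.529). The highest diabetic value was that of D_C 3 for the proximal tubule sum (0.653).

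The effect of diabetes differed between untreated and B12-treated kidneys in 3 named genes by edgeR's interaction test without the pair, and in 0 with all libraries. For Aqp3 the effect was 0.717 in untreated and 0.11 in B12-treated kidneys, a difference of -0.607 (adjusted p = 0.0435). For Lamc1 it was 0.511 and 0.0217, a difference of -0.489 (adjusted p = 0.0466). For Txnip it was 0.738 and -0.247, a difference of -0.986 (adjusted p = 0.0435). These p-values are too small because the pair was left out for its expression.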

How the results depend on the processing

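Counts are given for the effect over both treatments, in untreated kidneys, in B12-treated kidneys, for the interaction and for alike genes, in that order (767, 423, 209, 0 and 485 as reported). DESeq2 called 1837, 1637, 1189, 943 and 731, no filter beyond 1 count gave 427, 63, 35 and, for alike genes, 319, and the label date as a covariate gave 0, 2, 29, 753 and 0. Without D_C 1 and ND_B12 4 the counts were 2495, 2087, 684, 83 and 1288. An unadjusted p below 0.05 with a log2 fold change of at least 0.5 gave 1375 (774 higher, 601 lower), 1941, 1898, 2326 and 290. Upper-quartile normalization gave 18 in B12-treated kidneys, and filterByExpr and additive factors moved no count by over 1.5 times. The replicate numbers did not pair the libraries (correlations of deviations from -0.183 to 0.168, over 0.1 in 3 of 24 pairs, and 5 of 16 libraries closest to their own number). The replicate block gave 478, 269, 25 and 147, and, in an alternative chosen after seeing the data, 2007, 1393, 469, 38 and 1157 without the pair. Leaving out 1 library gave 225 to 1687, 0 to 1551, 0 to 438, 0 to 265 and 176 to 865. Without the pair the marker sums of T cells (-0.47), macrophages (-0.36), adipocytes (-0.94), endothelium (0.21), skeletal muscle (0.37) and podocytes (0.12) passed, and with 1 library left out they ranged from -0.417 to -0.258, -0.324 to -0.212, -0.799 to -0.566, 0.134 to 0.193, 0.144 to 0.299 and 0.0582 to 0.104. With the label date, all 54 called named genes kept their direction and lost the call, and 8 others reversed: Scd1 (0.81), Ugt1a6b (-0.24), Col4a2 (-0.0295), Slc2a2 (-0.38), Tkfc (-0.0054), Elmo1 (0.35), Txnip (-0.61) and Bmal1 (0.65). Elmo1 also reversed without ND_C 1 (0.039) and D_B12 3 (0.0025), Bmal1 (0.20) and Ren1 (0.13) without ND_B12 1, Txnip without ND_B12 3 (-0.0036), with ranges over single libraries left out of -0.077 to 0.039 for Elmo1, -0.36 to 0.20 for Bmal1, -0.26 to 0.13 for Ren1 and -0.0036 to 0.189 for Txnip, and Bmal1 with the block and without the pair (0.052). Of the 54, 18 passed with any 1 library left out. The cause of these changes was not tested. At this depth, genes summing to under 100 counts could not be examined.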
